A study of Drosophila melanogaster with 6 samples.

Results

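The imaginal disc growth factor genes Idgf1 to Idgf6 were taken by their current FlyBase symbols from the deposited gene counts of adult Drosophila melanogaster midguts, and all 6 were matched among the 15682 gene identifiers of the tables. The libraries came from 3 pools of female and 3 pools of male midguts, the main digestive part of the gut. All flies were of the white-eyed laboratory strain w1118, virgin, aged 15 days and kept at 29 °C, with 30 midguts in each pool. The comparison asks which transcripts differ between the sexes. The labels do not tell whether pools of a sex were raised in different cultures, so the p-values rest on pool-to-pool spread that may be technical. Library totals ranged from 23825935 to 38406746 counts, so that 3 counts stood for 0.0781 to 0.126 CPM, counts scaled to the size of the library. This limit covers counting error alone. Transcripts of the enterocyte, the absorptive cell of the midgut, were abundant in each library, with 5 of 6 listed markers matched. They summed to 63701 to 79899 CPM in females and 52700 to 65637 CPM in males. Nearly all of these sums came from the protease genes alphaTry, betaTry and Jon65Aiv. The marker nub averaged 116 CPM in females and 109 in males, and Myo31DF 518 and 658 CPM. Neither passed the test used below. Myo31DF averaged lower in females, where the sums ranged higher, so the sums are not taken to measure the amount of enterocytes. Single libraries stood apart in transcripts of neighbouring tissues. Male replicate 3 alone carried the accessory gland genes Acp26Aa and SP, at 3.13 and 2.63 CPM, and the testis genes betaTub85D and Mst98Ca, with 85 and 33 counts. It also held Acp36DE, another accessory gland gene, at 13.4 CPM, with 2 counts in female replicate 1 and 0 in the other libraries. Female replicate 1 had the most yolk protein transcripts. Fits without each library are given where they change a result.

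Idgf proteins are secreted and carry the protein fold of the family 18 glycoside hydrolases (GH18), the chitinases, but lack the catalytic residue and do not cut chitin. They were found as factors from fly cell cultures that promote growth of imaginal disc cells, acting together with insulin, and have since been tied to wound healing, cuticle formation and the response to infection. The fat body and the blood cells are known sources, and the midgut itself is lined by the peritrophic matrix, a chitin-containing sheet that separates food from the epithelium.

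Idgf1, Idgf2 and Idgf3 are direct neighbours on chromosome arm 2L and are read from the same strand. Idgf4 lies alone on the X, and Idgf5 and Idgf6 lie apart from each other on 2R. The annotation used (Ensembl, BDGP6) gives the 6 genes nearly equal coding lengths of 1317 to 1356 bases. Their exons add up to 1445 to 1834 bases in 5 genes and to 3954 bases in Idgf3, whose 4 transcripts span 1649 to 3801 bases. No exon of an Idgf gene overlaps a gene on the opposite strand in that annotation, and the only exon overlap is between Idgf4 and a transposon remnant of the INE-1 kind. The genes are paralogs, and how the counting treated reads that match more than a single place is not given in the sources used here.

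Idgf4, Idgf3 and Idgf6 carried almost all Idgf reads of the midgut in both sexes. Idgf2 was low, and Idgf1 and Idgf5 were at or near the floor. Idgf4, tied, like its relatives, to cuticle formation and wound healing, had 22.2, 25.6 and 16.4 CPM in the 3 female libraries, against 15.0, 15.1 and 14.1 CPM in the 3 male libraries. All female libraries stood above all male ones. Idgf3, known from the blood clot of larvae, had 21.8, 20.1 and 16.0 CPM in females and 18.7, 15.7 and 19.6 CPM in males. Those ranges overlapped. Idgf6, also known as DS47 after a protein released by a fly blood cell line, had 15.3, 4.61 and 1.83 CPM in females and 8.89, 7.92 and 7.35 CPM in males. Its highest and its 2 lowest values were all in females, with the males between them. Idgf2 had 2.82, 0.719 and 1.60 CPM in females and 1.93, 1.34 and 1.95 CPM in males, again with the females on both sides of the males.

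The remaining genes were too low to compare. Idgf1 had 14, 0 and 2 counts in female replicates 1, 2 and 3 and 3, 10 and 13 counts in male replicates 1, 2 and 3. Idgf5, which lies next to the glutathione S-transferase gene GstE10, had 6, 0 and 0 counts in females and 0, 5 and 6 counts in males. Over the 3 libraries of a sex, Idgf1 summed to 16 counts in females and 26 in males, and Idgf5 to 6 and 11. Neither gene passed the filter on low counts, and a difference between the sexes was not detectable at this depth.

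**Figure D1:**
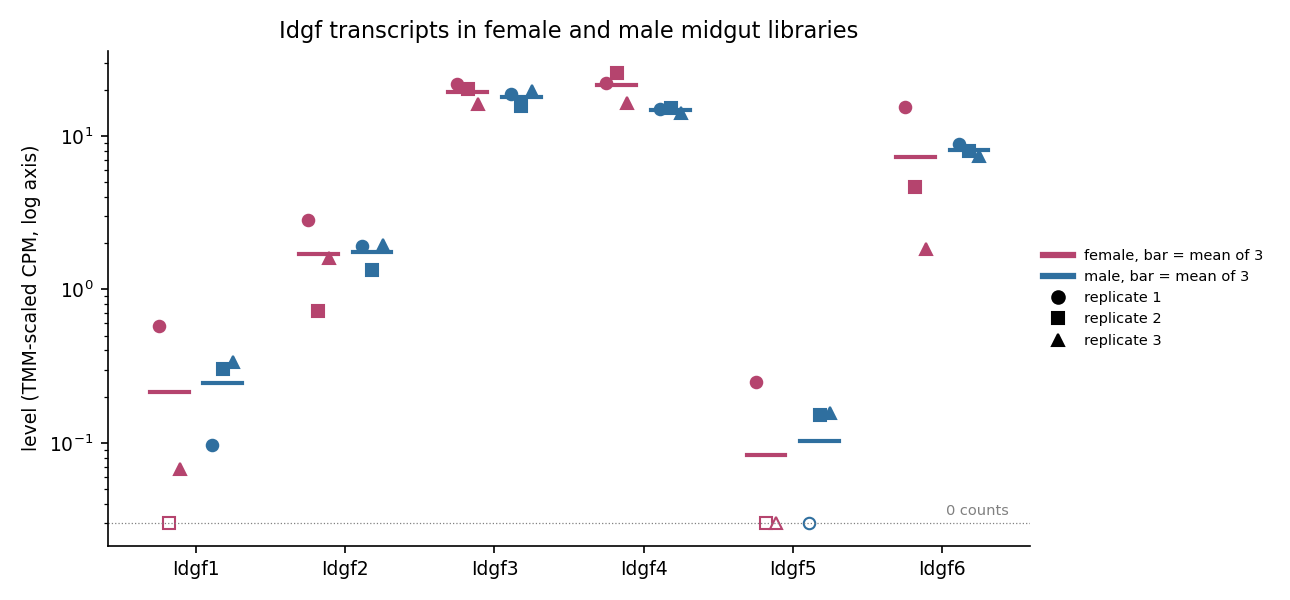
Level of each Idgf gene in every library, in CPM scaled by TMM on a log axis, with females left of males, a symbol for each replicate and a bar at the mean of 3 libraries; open symbols on the dotted line are libraries with 0 counts. The 3 female values of Idgf4 lie above the 3 male ones, and the female values of Idgf6 and Idgf2 spread to both sides of the males.

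Set against exon length, the family kept an order in which Idgf4 led. It averaged 11.7 ± 2.52 CPM per kilobase of exon in females and 8.02 ± 0.302 in males (SD over 3 libraries). Idgf3 followed with 4.88 ± 0.749 in females and 4.56 ± 0.524 in males, and Idgf6 with 4.01 ± 3.94 and 4.45 ± 0.431. Idgf2 stood at 0.953 ± 0.587 CPM per kilobase in females and 0.969 ± 0.193 in males. Idgf1 averaged 0.149 ± 0.219 in females and 0.171 ± 0.0908 in males, and Idgf5 0.0554 ± 0.0960 and 0.0688 ± 0.0596.

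Idgf4 was above Idgf3 and above Idgf6 in all 6 libraries. By exon length Idgf3 and Idgf6 did not separate, with Idgf3 the higher per kilobase in 2 of 3 female and 1 of 3 male libraries. Idgf2 was below all 3 of these genes and above Idgf1 and Idgf5 in every library. Idgf1 was above Idgf5 in 2 of 3 female and 3 of 3 male libraries, with the counts of both near the floor. Within the 2L cluster the level of Idgf2 was 0.0788 to 0.285 times that of Idgf3 in females and 0.188 to 0.226 times in males, per kilobase of exon. Taking the shortest transcript as the length, a choice made after seeing the data, raised Idgf3 to 11.7 CPM per kilobase in females and 10.9 in males, against 14.1 and 9.71 for Idgf4. With that length Idgf3 was below Idgf4 in all 3 female libraries but above it in 2 of 3 male libraries, so the lead of Idgf4 over Idgf3 depends on which transcript is used. With it Idgf3 was also above Idgf6 in all 3 female and all 3 male libraries, by 1.33 to 8.15 times in females and 1.85 to 2.499 times in males. Among 15002 genes with an annotated length, the level of Idgf4 per kilobase, averaged over the 6 libraries, was above that of 73.8% of genes, that of Idgf3 above 64.1% and that of Idgf6 above 62.8%, genes at 0 included.

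Per kilobase, Idgf4 made up 55.4% ± 10.98 (SD) of the family's summed level in the 3 female libraries, against 44.0% ± 2.32 in the 3 male ones (two-sided p = 0.3 in an exact permutation test, adjusted p = 0.72 over the 6 shares). Its share was 42.9%, 63.4% and 59.9% in the female libraries, so female replicate 1 lay within the male range of 42.3% to 46.7%. Idgf6 made up 30.0%, 11.6% and 6.77% in females and 25.9%, 24.8% and 22.4% in males (two-sided p = 0.4 in the exact permutation test, adjusted p = 0.72). Idgf3 held 23.2% ± 3.77 in females and 24.98% ± 2.45 in males (two-sided p = 0.6 in the exact permutation test, adjusted p = 0.72). With the shortest transcript as the length, Idgf4 made up 45.1% in females and 35.5% in males, and Idgf3 37.4% and 39.9%, so that Idgf3 held the larger share in males. The smallest p that 3 against 3 libraries can give is 0.1, so none of these shares could pass.

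The family as a whole summed to 62.9, 51.0 and 36.0 CPM in females and to 44.6, 40.5 and 43.5 CPM in males. The mean of the female libraries was 49.96 ± 13.5 CPM and that of the male ones 42.9 ± 2.13 CPM (SD over 3). The difference of 7.09 CPM is smaller than the female spread (two-sided p = 0.5 in an exact permutation test). Without female replicate 3 the difference was 14.1 CPM and without female replicate 1 it was 0.606 CPM.

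**Figure D2:**
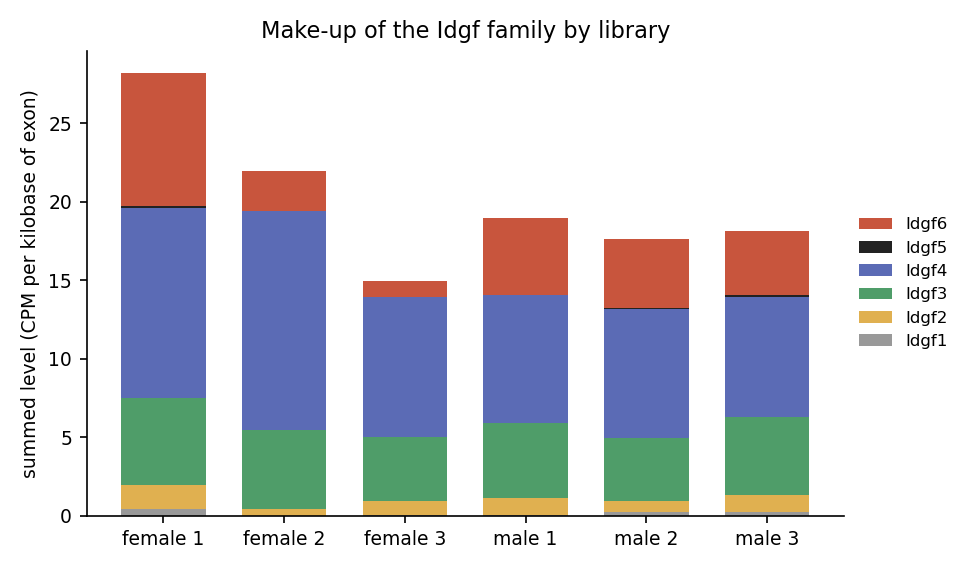
Summed level of the family in each library, in CPM per kilobase of exon, stacked by gene, with the 3 female libraries left of the 3 male ones. The male bars are alike in height and make-up, and the female bars differ mainly in the Idgf6 and Idgf4 parts.

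Fold changes between the sexes were fitted on all 8941 genes that passed the filter on low counts, 4 of the 6 Idgf genes among them. They are given as log2 female over male from the quasi-likelihood test of edgeR, with a standard error that restates the p-value of that test and a 95% interval. None of the 4 passed at an adjusted p under 0.05, where 9.39% of all genes tested did, 3.87% as higher in females and 5.53% as higher in males. At an unadjusted p under 0.05 the count was 1 of 4, Idgf4, against 21.0% of all genes, and DESeq2 and limma-voom called 0 of the 4, where they called 13.5% and 9.41% of the genes they tested. The median log2 fold change of the 4 genes was 0.03, and that of all genes tested was -0.02.

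Idgf4 had a log2 fold change of 0.54 ± 0.17 (95% interval 0.16 to 0.93, unadjusted p = 0.0102, edgeR adjusted p = 0.0832). It was the only tested member whose libraries did not overlap between the sexes, which was so for 26.2% of all genes tested, 12.4% with the females above. Without female replicate 3, the lowest female library, it passed, with a log2 value of 0.70 (edgeR adjusted p = 0.0355). Over the 14 alternatives the log2 fold change ran from 0.39 to 0.70 and the adjusted p from 0.0355 to 0.258. Idgf4 is X-linked, and the 1432 X-linked genes tested had a median log2 fold change of 0.05, against -0.03 for the 7141 autosomal ones. Of the X-linked genes, 12.2% had a fold change at least as high as that of Idgf4, and of the autosomal genes 8.35%.

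The log2 fold change of Idgf3 was 0.10 ± 0.16 (95% interval -0.26 to 0.46, edgeR adjusted p = 0.834), the narrowest interval of the family. Idgf2 had -0.03 ± 0.51 (95% interval -1.16 to 1.09, edgeR adjusted p = 0.985). Idgf6 had -0.16 ± 0.72 (95% interval -1.93 to 1.61, edgeR adjusted p = 0.948). The intervals of Idgf2 and Idgf6 take in more than a log2 unit to either side, and neither shows that the sexes are alike.

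**Figure D3:**
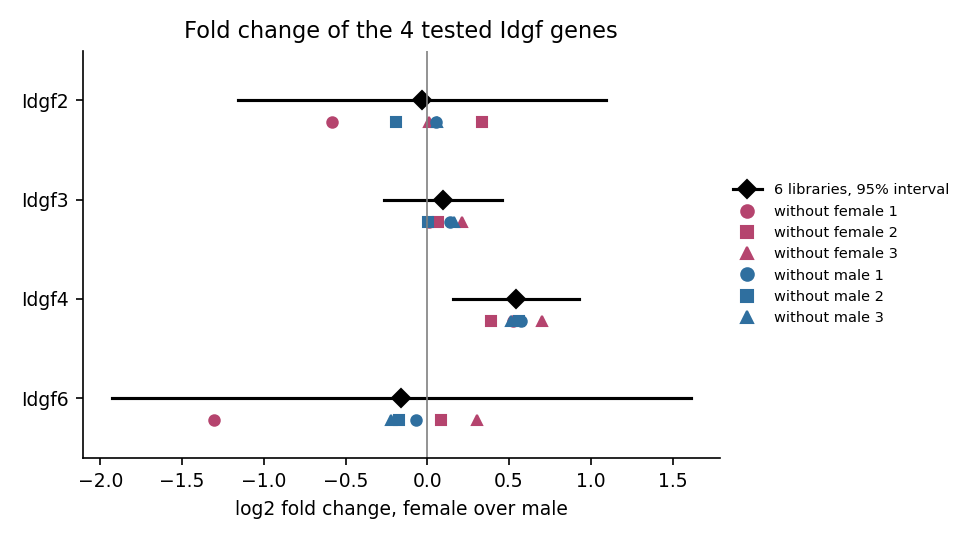
Log2 fold change, female over male, of the 4 tested Idgf genes, with diamonds and lines for the fit on 6 libraries and its 95% interval and coloured symbols for the fits that leave out a single library. Idgf4 stays positive in each of these fits, from 0.39 to 0.70, and Idgf6, at -0.16 with all libraries, lies at -1.31 without female replicate 1, 0.08 without female replicate 2 and 0.30 without female replicate 3.

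Among the 4 tested members, Idgf6 had the widest spread within females. The highest female library had 8.35 times the level of the lowest, whereas in males that ratio was 1.21. On the log2 scale the SD was 1.503 in females and 0.14 in males. Among 6630 tested genes with a mean of at least 5 CPM, 0.302% had a female spread as large, and the median female SD was 0.16. Idgf2, whose mean lies below that minimum, also spread more in females (log2 SD 0.92) than in males (0.29), and Idgf4 did so to a lesser degree (0.32 and 0.05). Of the 6630 genes, 13.6% had a female spread as large as that of Idgf4. A male spread as large was seen in 94.7%, with a median male SD of 0.19, so the male libraries of Idgf4 were unusually close. Without female replicate 1 the log2 fold change of Idgf6 was -1.31 ± 0.37 (edgeR adjusted p = 0.0775), and it turned positive, at 0.08 and 0.30, without female replicates 2 and 3. Over its alternatives the adjusted p ran from 0.0775 to 0.982.

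Transcripts of tissues next to the midgut also varied among the female libraries. byn, the transcription factor gene that defines the hindgut, had 43, 6 and 2 counts in female replicates 1, 2 and 3, and 51, 49 and 47 counts in male replicates 1, 2 and 3. It was highest and lowest in the same female libraries as Idgf6. The crop and hindgut list to which byn belongs had 4 of 5 genes matched and none at 0 in all libraries. It summed to 140 to 149 CPM in females and 186 to 195 CPM in males. Most of that came from the more abundant Drip, bowl and Ncc69, of which Ncc69 was called higher in males. In female replicates 1, 2 and 3 Ncc69 had 34.1, 28.6 and 27.0 CPM, in the order of Idgf6. Drip, at 65.8, 68.5 and 64.0 CPM, and bowl, at 47.3, 45.9 and 49.2 CPM, did not follow that order. In male replicates 1, 2 and 3 Ncc69 had 54.4, 59.3 and 59.6 CPM, the reverse of the order of Idgf6 in males. Fat body markers, 14 of 14 matched, summed to 57.1 to 296 CPM in females and 16.9 to 31.4 CPM in males. Most of that sum in females came from the yolk protein genes, with Yp1 at 145, 24.9 and 23.2 CPM in female replicates 1, 2 and 3. apolpp, which codes for the main lipid carrier of the blood and is made in the fat body, had 24.9, 7.06 and 6.46 CPM in those libraries and 5.62, 17.3 and 15.2 CPM in male replicates 1, 2 and 3. Yp1 averaged 64.3 CPM in females and 1.62 CPM in males, whereas apolpp averaged 12.8 and 12.7 CPM. The sums of this list therefore do not measure the amount of fat body in each sex. Of the 14 fat body markers, 2 larval genes, Fbp1 and Lsp1alpha, were at 0 in all libraries, and the larval genes Fbp2, Lsp1beta, Lsp1gamma and Lsp2 had 0 to 16 counts in a library. Among the female libraries, replicate 1 was the highest for 9 of the 11 fat body markers detected in females, for 6 of 6 visceral muscle markers, for 2 of 4 crop and hindgut markers and for 0 of 7 detected blood cell markers. It was the highest for 5 of the 6 Idgf genes, and replicate 2 for Idgf4. Idgf1 and Idgf5, both near the floor, are among those 5. Several of the 9 fat body markers were also low, with 5, 0 and 2 counts of Lsp1beta and 2, 0 and 0 of Lsp2 in females. The fat body marker to was highest in replicate 2, with 0.166, 10.3 and 0.646 CPM in females. All 6 visceral muscle markers were lowest in female replicate 2, whereas Idgf6 was lowest in female replicate 3. Mhc, of the muscle list, had 382, 128 and 244 CPM in female replicates 1, 2 and 3. In male replicates 1, 2 and 3 it had 265, 390 and 166 CPM, with its peak in replicate 2 and that of Idgf6 in replicate 1. How often replicate 1 was the highest female library among all genes is not given here, so these counts have no base rate beside them. Of the blood cell markers, He was at 0 in all libraries and Hml, the usual marker of plasmatocytes, had 0.331, 2.29 and 0.714 CPM in females and 0.995, 0.487 and 1.77 CPM in males. The part of other tissues in the Idgf levels was not tested, and in these bulk pools fewer cells of a type and less RNA per cell cannot be told apart.

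The genes with the profile most like that of Idgf4, which was both the highest member per kilobase and the one with the smallest p, were Nlp, PIG-K and Zif. Likeness was the root-mean-square difference of log2 CPM over the 6 libraries, each gene centred on its own mean, among 5625 genes with a mean of at least 10 CPM. Nlp, a nucleoplasmin-like histone chaperone gene, differed by 0.06 and had 102, 114.8 and 74.0 CPM in females against 65.4, 62.7 and 65.9 CPM in males. PIG-K, which codes for a subunit of the enzyme that attaches GPI anchors, differed by 0.07, and Zif, a zinc finger transcription factor gene, by 0.11. For Idgf6, chosen for this after its values were seen, the nearest profiles were farther off. Tps1, the gene of trehalose phosphate synthase, differed by 0.42 and had 25.8, 10.2 and 4.93 CPM in females against 10.3, 18.4 and 19.5 CPM in males. vir-1, a gene induced by virus infection, differed by 0.52 and Msr-110 by 0.53. With 6 libraries and this many genes, some close profiles arise whatever the gene.

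**Figure D4:**
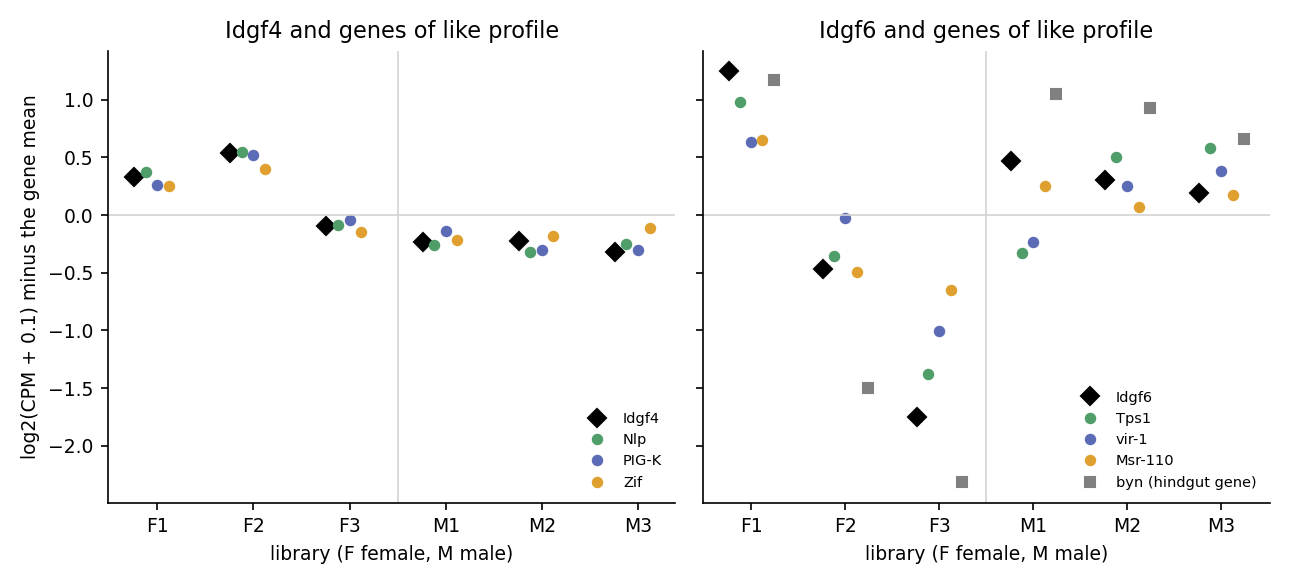
Log2(CPM + 0.1) of Idgf4 (left) and Idgf6 (right) in each library, minus the mean of the gene, beside the 3 genes of most like profile and, for Idgf6, byn; F are female and M male replicates. Idgf4 and its 3 nearest genes lie close together in each library. Idgf6 falls below its nearest genes in female replicate 3 and lies above them in male replicate 1. Of the crop and hindgut list only byn is drawn, and Drip and bowl of that list did not follow Idgf6 in females.

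Among the GH18 relatives of the Idgf genes a single gene passed. Of 11 such genes matched, 6 were tested and 1 was higher in males, none in females, against 5.53% and 3.87% of all genes tested. Cht4, a chitinase gene, had 5.76, 7.49 and 4.96 CPM in females against 28.0, 9.63 and 18.3 CPM in males. All female libraries lay below all male ones, and male replicate 2 was nearest to them. Its log2 fold change was -1.62 ± 0.35 (edgeR adjusted p = 0.0199). It did not pass when any female library was left out (edgeR adjusted p = 0.0800, 0.0503 and 0.101 for replicates 1, 2 and 3), without male replicate 3 (0.0751) or with no filter beyond 1 count (0.0613). Cht9, a chitinase gene that overlaps an antisense gene, averaged 51.6 ± 13.7 CPM in females and 59.4 ± 16.2 CPM in males and did not pass (edgeR adjusted p = 0.728). Cht8, which shares exon sequence with Cht12 on the opposite strand, had 0.497, 14.1 and 0.306 CPM in females and 12.4, 0.396 and 0.599 CPM in males, so that 1 library of each sex stood far above the others. The median log2 fold change of the 6 tested GH18 genes was -0.23.

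None of the 12 tested genes of chitin synthesis and modification passed in edgeR, nor at an unadjusted p under 0.05, nor in DESeq2 or limma-voom. Chs2, the chitin synthase gene of the gut, averaged 428 ± 19.8 CPM in the female libraries and 437 ± 98.9 CPM in the male ones. The smallest p values were those of knk, Hexo1 and Cda9. Hexo1 codes for a hexosaminidase and overlaps an oppositely oriented gene. It had -0.39 ± 0.19 on the log2 scale (edgeR adjusted p = 0.277). Cda9, a chitin deacetylase gene, had -1.12 ± 0.63 (edgeR adjusted p = 0.364), and knk, needed to organise chitin, 2.45 ± 1.16 (edgeR adjusted p = 0.262) at levels under 2 CPM.

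Another family of secreted growth factors, the adenosine deaminase-related Adgf genes, which break down extracellular adenosine, differed in a single gene. Of 4 tested, 1 was higher in males and none in females, against 5.53% and 3.87% of all genes tested. Adgf-A2 had 2.98, 3.66 and 3.53 CPM in females and 8.92, 8.10 and 4.25 CPM in males (log2 -1.06 ± 0.30, edgeR adjusted p = 0.0492). The call was lost with RLE size factors (0.0514), with factors from autosomal genes (0.0514) and in limma-voom (0.142). It was also lost with the replicate number as a block (0.088) and without any single library except male replicate 3 (0.0941 to 0.188). The gene was not tested where at least 5 CPM in 3 libraries was asked. Adgf-A, which shares exon sequence with Adgf-A2 so that both values are uncertain, had 292, 281 and 220 CPM in females and 407, 428 and 308 CPM in males (log2 -0.53 ± 0.17, edgeR adjusted p = 0.0903) and was called by DESeq2 (adjusted p = 0.0333), which called 13.5% of all genes. Adgf-D, the next by p, had 1.20 ± 1.04 (edgeR adjusted p = 0.602).

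**Figure D5:**
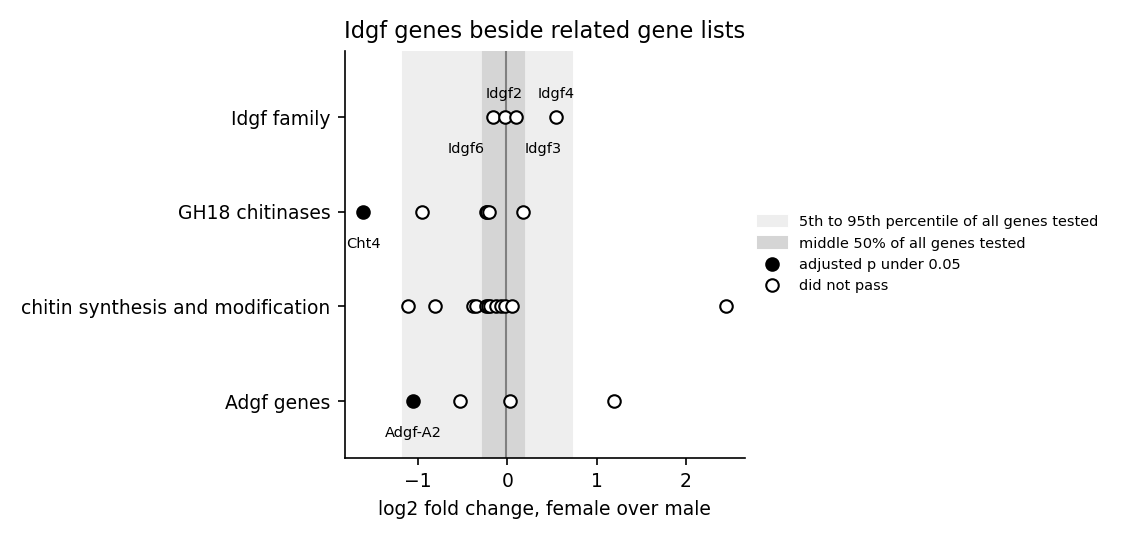
Log2 fold change, female over male, of the tested genes of the Idgf family and of 3 related lists, filled where the adjusted p was under 0.05; the grey bands hold the middle 50% and the 5th to 95th percentile of all genes tested. Idgf4, at 0.54, lies inside the wider band, and Cht4, at -1.62, lies outside it.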

How the data were processed

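The deposited files hold raw counts of reads per gene, which the authors left unnormalized. The submitters' processing notes name TopHat2 2.0.11, HTSeq and build dm3. The strand setting, the annotation release and the handling of multiply matching reads were not given in the sources used here. A current name table gave symbols for 15002 of 15682 identifiers. Ensembl's BDGP6 annotation, joined on identifiers, gave arms, lengths and overlaps. Coordinates are not given because the builds differ.

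Genes were kept with filterByExpr (minimum count 10, total 15), scaled with TMM and compared by sex alone with edgeR 4.0.16 (robust quasi-likelihood, R 4.3.3), with Benjamini-Hochberg adjustment over all genes tested. CPM use TMM-scaled library sizes. The standard error is the size of the log2 fold change divided by the root of F. Sums and shares were compared with exact two-sided permutation tests. Alternatives were other scalings and filters, DESeq2 1.42.0, voom of limma 3.58.1, the replicate number as a block, other lengths and leaving out each library. The main edgeR fit was tried on counts simulated from the means and dispersions of these libraries, and the permutation test on a made-up example. No pair of replicates agreed within sampling noise (lowest chi-square 31.2 per degree of freedom), so none was treated as a library deposited a second time.

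The genes and lists were chosen with earlier results of these data known. Named were all Idgf genes, each GH18 gene that passed, the 3 chitin and Adgf genes with the smallest p, and the 3 genes of most like profile to the Idgf gene with the highest level and the one with the smallest p. Idgf6 for its like profiles, and Cht8, Cht9, Chs2 and the marker genes of other tissues, were named after their values were seen. Names with no matching identifier were not analysed here.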

Additional observations from a re-analysis of the deposited data

How the results depend on the processing

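The log2 fold changes of Idgf3 and Idgf4 kept their sign in all 14 alternatives. Without a single library that of Idgf3 ran from 0.01 to 0.21, that of Idgf4 from 0.39 to 0.70, that of Idgf2 from -0.58 to 0.34 and that of Idgf6 from -1.31 to 0.30. Idgf4 passed only without female replicate 3, Idgf2 turned positive without female replicates 2 or 3 or male replicates 1 or 3, and Idgf6 without female replicates 2 or 3. The difference in the share of Idgf4, 11.4 points with all libraries, ran from 7.41 to 17.7 points. Idgf1 and Idgf5 could be tested only with no filter beyond 1 count (edgeR adjusted p = 0.966 and 0.96), and Idgf2 did not reach 5 CPM in 3 libraries. DESeq2 called 552 genes higher in females, against 346 in edgeR. Without a single library that count ran from 164 to 419, and for males from 332 to 513 around 494. Adgf genes higher in males came to 0 with RLE, with autosomal factors, at 5 CPM, in limma-voom and with the replicate block, to 2 in DESeq2 and to 0 to 2 without a single library. GH18 genes higher in males came to 0 with no filter beyond 1 count and to 0 to 1 without a single library.

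Same-numbered libraries showed no positive correlation: their deviations from the group means correlated at -0.114, -0.212 and -0.104 across genes. Those of differently numbered libraries correlated at -0.075 to 0.228. With 3 libraries of a sex the deviations constrain each other, so these values cannot exclude that same-numbered pools were handled together. With the number as a block the calls came to 261 toward females and 415 toward males, and Idgf4 had an adjusted p of 0.132. Depth limits Idgf1 and Idgf5, at no more than 14 counts in any library.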

Other observations

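Marker lists of other cell types were also summed in each library. Visceral muscle markers, 6 of 7 matched, summed to 485 to 1211 CPM in females and 671 to 1345 CPM in males. Blood cell markers, 9 of 10 matched, summed to 111 to 159 CPM in females and 274 to 280 CPM in males, most of it from crq, a scavenger receptor gene lower in females by log2 -1.15 (edgeR adjusted p = 0.00174). Trachea markers, 5 of 6 matched and 2 of them, Cht2 and verm, also in the chitin lists, summed to 11.9 to 18.4 CPM in females and 10.3 to 15.0 CPM in males. Malpighian tubule markers, 5 of 7 matched, summed to 111 to 159 CPM in females and 102 to 143 CPM in males. Most of the tubule sum was ClC-a, which averaged 120 CPM in females and 110 CPM in males. Uro, of the same list, had 4 counts in male replicate 3 and 0 in the other libraries. Enteroendocrine markers, 8 of 8 matched, summed to 468 to 569 CPM in females and 706 to 882 CPM in males, with 4 of 8 genes higher in males, against 5.53% of all genes tested. Stem cell and enteroblast markers, 4 of 6 matched, summed to 15.5 to 18.0 CPM in females and 18.7 to 20.03 CPM in males. Ovary markers, 5 of 7 matched, summed to 3.11 to 4.21 CPM in females and 4.11 to 11.6 CPM in males. Most of that sum was otu, at 3.11, 3.14 and 3.74 CPM in females and 3.92, 11.6 and 8.96 CPM in males, which was called higher in males (edgeR adjusted p = 0.0437). Male reproductive tract markers, 7 of 7 matched, summed to 4.28 to 33.6 CPM in females and 6.25 to 40.6 CPM in males. In females that sum was EbpIII, at 10.3, 33.6 and 4.28 CPM, against 17.6, 6.25 and 17.7 CPM in males, apart from 2 counts of Acp36DE in female replicate 1.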
